A study of Homo sapiens with 24 samples.

Results

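Erythropoietin (EPO) and 6 other genes known as targets of low oxygen were followed in HepG2 cells, a line derived from a human liver carcinoma. The 7 genes, EPO, HILPDA, NDRG1, BNIP3, ADM, VEGFA and ANKRD37, were taken by symbol from the probe annotation, and each had 1 probe set among 14884 genes measured. There were 8 groups. By the sample titles, BRD8518 at 1 uM was given for 1 h (3 arrays), 6 h (2 arrays) and 24 h (3 arrays). Oncostatin M (OSM) was given at 100 ng/mL for 1 h and 24 h (3 arrays each). DMSO vehicle arrays stood at 1 h (3), 6 h (4) and 24 h (3), and all wells, OSM wells included, held 0.25% DMSO. BRD8518 is a small molecule known by its code name, described in the series title as inducing the tribbles gene TRIB1, and OSM is a cytokine of the interleukin-6 family that signals through gp130 and STAT3. The labels name no oxygen level and no hypoxia treatment, so no sample served as a hypoxia control.

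Cells sense oxygen through prolyl hydroxylases, which mark the alpha subunits of the hypoxia-inducible factors (HIFs) for destruction by the VHL ubiquitin ligase while oxygen is present. When oxygen falls, the alpha subunits HIF1A and EPAS1 (HIF-2 alpha) escape, pair with ARNT and switch on target genes. Hepatoma lines such as HepG2 are a classic model for this control because they make EPO, the hormone of red cell formation that the fetal liver and the adult kidney secrete. Several of the 7 genes also answer to signals other than oxygen, among them MAP kinase, STAT3 and nutrient stress.

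Levels are log2 values from the robust multi-array average (RMA) method. A change is 1 group mean less another on this scale, and SE is the standard error from the fit. A gene is said to have risen or fallen where its limma adjusted p (Benjamini-Hochberg over 14884 genes) was under 0.05. Array medians lay between 4.89 and 4.95, and the number of arrays limits the precision. One array, DMSO 6 h replicate 2, stood apart with a correlation of 0.978 with the mean of the rest of its group, against 0.994 or more for every other array. As a check of the labels, TRIB1 stood 1.39 ± 0.087 (SE) higher with BRD8518 at 6 h (0.20 at 1 h, not passed), and SOCS3, a STAT3 feedback gene, 4.75 ± 0.14 higher with OSM at 1 h. Each gene also rose with the other agent, TRIB1 by 1.68 with OSM at 1 h and SOCS3 by 0.45 with BRD8518 at 6 h. Neither gene therefore marks 1 agent alone. In bulk RNA, fewer cells of a type and less RNA per cell cannot be told apart. The hepatocyte markers were bright, with 7 of 10 measured and a lowest DMSO 1 h mean of 8.11 (FOXA2), while the stromal markers LUM and DCN stood at 3.23 and 2.39.

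Against DMSO, BRD8518 changed 0 of the 7 genes at 1 h, 5 at 6 h (4 fell, 1 rose) and all 7 at 24 h (5 fell, 2 rose). Of all genes, 0.255% passed at 1 h (0.222% higher, 0.0336% lower), 14.5% at 6 h (5.62% higher, 8.86% lower) and 27.7% at 24 h (12.1% higher, 15.6% lower). When only the 6 h arrays were fitted, 2 of the 7 genes passed. With arrays centred on their medians, the 6 h split of all genes moved from 836 higher and 1319 lower to 1309 and 943. OSM changed 2 genes at 1 h, both upward (of all genes 2.84% passed, 2.03% higher and 0.813% lower), and 2 at 24 h, 1 each way (of all genes 10.3%, 4.6% higher and 5.65% lower). The median change of the 7 genes with BRD8518 was −0.058 at 1 h, −0.32 at 6 h and −0.52 at 24 h, beside 0.016, −0.011 and −0.0049 over all genes. For OSM the median was 0.14 (1 h) and 0.092 (24 h), beside 0.0066 and 0.0076 over all genes. The 7 genes were chosen with earlier results of these data known, so these counts and medians are not an independent test. At 1 h of BRD8518, HILPDA and ADM had an unadjusted limma p under 0.05 (2 of 7 genes), where 760 of all genes did and 744 would by chance.

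**Figure D1:**
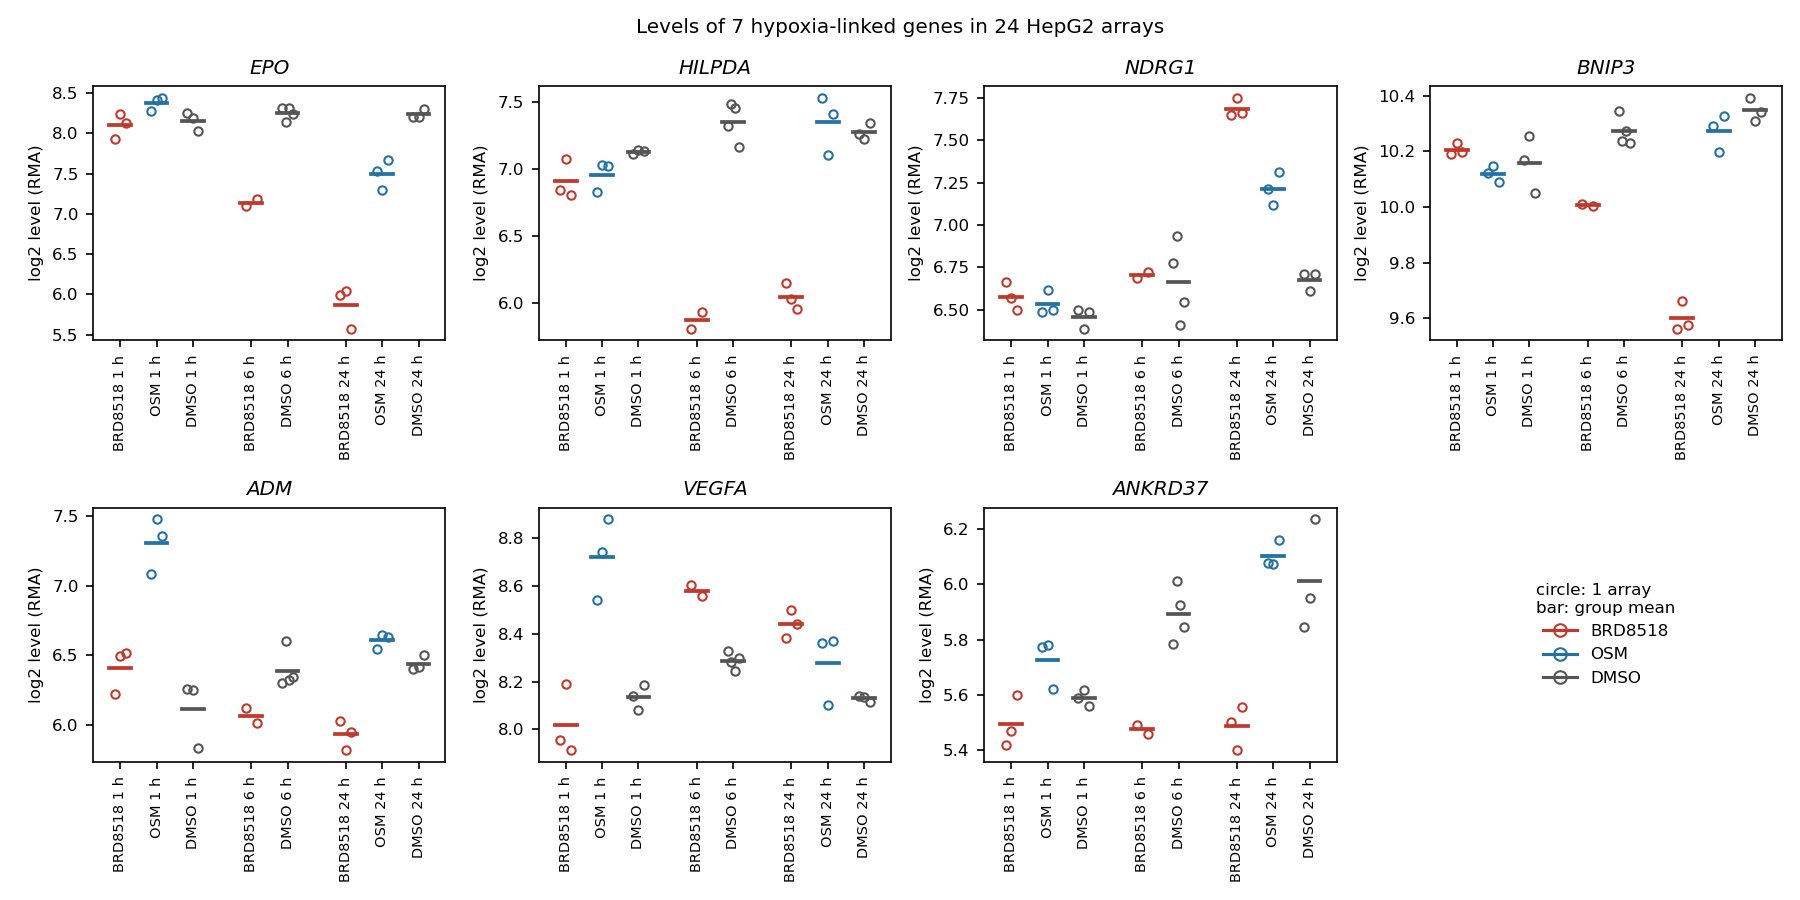
Log2 level (RMA) of each of the 7 genes on every array, with circles for arrays and bars for group means, by treatment (BRD8518, OSM, DMSO) and time. EPO on the 24 h BRD8518 arrays lies between 5.58 and 6.04, below every other array, and NDRG1 is highest there.

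EPO fell furthest of the 7. At 24 h it stood at 6.00, 6.04 and 5.58 on the BRD8518 arrays, at 7.53, 7.29 and 7.67 on the OSM arrays, and at 8.20, 8.21 and 8.30 on the DMSO arrays, so the 3 groups did not overlap. BRD8518 lowered it 5.15-fold against DMSO (log2 change −2.36 ± 0.11 SE, limma adjusted p = 4.97e-13), the 4th largest fall among 14884 genes. OSM lowered it 1.67-fold (−0.74 ± 0.11, limma adjusted p = 8.27e-05). At 6 h the BRD8518 arrays held 7.10 and 7.18, against 8.31, 8.14, 8.32 and 8.24 in DMSO, and the change was −1.11 ± 0.12 (2.16-fold lower, limma adjusted p = 7.47e-07). One hour of treatment had left EPO near its control: 7.93, 8.25 and 8.12 with BRD8518 and 8.28, 8.41 and 8.44 with OSM, beside 8.25, 8.19 and 8.03 in DMSO. The OSM arrays lay just above all DMSO arrays there, but the change of 0.22 (95% confidence interval −0.017 to 0.46) did not pass (limma adjusted p = 0.515).

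Ordered by mean, EPO ran from OSM 1 h (8.38 ± 0.087, SD, n = 3) through DMSO 6 h (8.25 ± 0.081, n = 4), DMSO 24 h (8.24 ± 0.057, n = 3), DMSO 1 h (8.16 ± 0.11, n = 3) and BRD8518 1 h (8.10 ± 0.16, n = 3), whose neighbours overlapped. Below these came OSM 24 h (7.50 ± 0.19, n = 3), BRD8518 6 h (2 arrays, mean 7.14) and BRD8518 24 h (5.87 ± 0.26, n = 3). The step down to OSM 24 h, 0.60, passed (limma adjusted p = 0.000787). The step between OSM 24 h and BRD8518 6 h, 0.36, did not pass (limma adjusted p = 0.0637), and the last step, 1.27, did (limma adjusted p = 2.02e-07). These steps were picked by ordering the same means. Those into and out of OSM 24 h differ in both agent and time, which cannot be told apart there. Some hepatocyte markers were also lower at 24 h. Of 7 measured, 4 fell with BRD8518 (TTR, APOA1, TF and AFP, −0.75 to −0.39) and 4 with OSM (APOA1, TTR, TF and AFP, −0.79 to −0.28). Of all genes, 15.6% fell with BRD8518 and 5.65% with OSM at 24 h. The summed log2 level of the 7 markers ran from 73.2 to 73.8 on BRD8518 arrays, against 75.9 to 76.4 on DMSO arrays. On OSM arrays it ran from 73.9 to 74.3. At 1 h of OSM 1 of the 7 markers fell, where 0.813% of all genes did, and the lowest marker change was −0.34. At 6 h APOA1 (−0.52 ± 0.16), TF (−0.28 ± 0.063) and FOXA2 (−0.21 ± 0.069) fell with BRD8518, where 8.86% of all genes fell. The marker sums ran from 75.1 to 75.4, against 76.2 to 77.2 in DMSO. Their part in the fall of EPO was not tested, and ALB, the albumin gene, changed by −0.18 with BRD8518 and −0.22 with OSM and did not pass.

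ADM encodes adrenomedullin, a peptide hormone that widens blood vessels. It had the largest rise of the 7 with OSM at 1 h, the 47th largest among all genes, with 7.08, 7.48 and 7.36 on OSM arrays, against 6.26, 6.25 and 5.83 in DMSO (2.29-fold, 1.19 ± 0.12, limma adjusted p = 3.73e-07). The OSM and DMSO arrays did not overlap. On the BRD8518 arrays of the same hour it stood at 6.22, 6.50 and 6.51, and the change of 0.30 ± 0.12 did not pass (limma adjusted p = 0.841). At 6 h ADM held 6.13 and 6.01 with BRD8518, against 6.30, 6.60, 6.32 and 6.34 in DMSO, which did not pass (−0.32 ± 0.13, limma adjusted p = 0.0944). By 24 h it was 6.03, 5.82 and 5.95 with BRD8518 and 6.55, 6.65 and 6.64 with OSM, beside 6.40, 6.42 and 6.50 in DMSO. BRD8518 thus lowered it (−0.51 ± 0.12, 1.42-fold, limma adjusted p = 0.00198), and the OSM change of 0.17 (95% confidence interval −0.077 to 0.41) did not pass.

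VEGFA, the main growth factor for blood vessels, rose with OSM at 1 h and with BRD8518 at 6 h and 24 h. The BRD8518 effect at 6 h minus 1 h, 0.41 ± 0.13, did not pass (limma adjusted p = 0.0688), and OSM had no arrays at 6 h. At 1 h the OSM arrays held 8.54, 8.74 and 8.88, above the DMSO values of 8.14, 8.08 and 8.19 (0.58 ± 0.090, 1.50-fold, limma adjusted p = 0.000213), while the BRD8518 arrays held 7.95, 8.19 and 7.91 and did not pass. At 6 h BRD8518 gave 8.60 and 8.56, against 8.33, 8.28, 8.24 and 8.30 in DMSO (0.29 ± 0.095, limma adjusted p = 0.0415). That call was lost without DMSO 6 h replicate 1, 3 or 4 (0.28 to 0.31) and when only these 6 arrays were fitted. It was also lost with the position letter as a fixed term. That term cannot change the estimate (0.29), because all 6 arrays carry the letter D. Without BRD8518 replicate 1 or 2, which leaves 1 BRD8518 array, the change was 0.27 or 0.32. At 24 h VEGFA stood at 8.38, 8.50 and 8.44 with BRD8518, 8.36, 8.10 and 8.37 with OSM, and 8.14, 8.13 and 8.12 in DMSO. The BRD8518 rise of 0.31 ± 0.090 passed (limma adjusted p = 0.0106), and the OSM change of 0.15 ± 0.090 did not (limma adjusted p = 0.411). OSM replicate 2 lay below every DMSO array.

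HILPDA encodes a lipid droplet protein that inhibits adipose triglyceride lipase. It had the largest fall of the 7 at 6 h, 2.79-fold (−1.48 ± 0.11, limma adjusted p = 2.95e-09), the 5th largest among all genes. BRD8518 arrays held 5.81 and 5.93, against 7.32, 7.48, 7.45 and 7.16 in DMSO. It remained low at 24 h, with 6.15, 6.03 and 5.96 on BRD8518 arrays and 7.53, 7.10 and 7.41 on OSM arrays, beside 7.26, 7.22 and 7.34 in DMSO. The BRD8518 change was −1.23 ± 0.11 (2.34-fold lower, limma adjusted p = 4.9e-09), and the OSM change of 0.074 (95% confidence interval −0.14 to 0.29) did not pass. After 1 h all BRD8518 arrays (6.84, 7.07 and 6.81) and all OSM arrays (6.83, 7.03 and 7.02) lay below the DMSO arrays (7.11, 7.14 and 7.13), by 0.22 and 0.17, and neither passed. HILPDA overlaps EFCAB3P1 in the RefSeq table, and the part of that transcript was not tested.

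BNIP3, a mitochondrial outer membrane protein that promotes mitophagy, fell at 24 h of BRD8518 to 9.56, 9.66 and 9.57, against 10.39, 10.31 and 10.34 in DMSO (−0.75 ± 0.066, 1.68-fold lower, limma adjusted p = 8.37e-09). The OSM arrays held 10.29, 10.20 and 10.33, a change of −0.076 (95% confidence interval −0.21 to 0.062) that did not pass. At 6 h the BRD8518 values were 10.01 and 10.00, against 10.35, 10.24, 10.27 and 10.23 in DMSO (−0.26 ± 0.070, limma adjusted p = 0.0117). The 6 h call was lost without BRD8518 replicate 1 (−0.27) or 2 (−0.26), with arrays centred on their medians (−0.19), and when only these 6 arrays were fitted. At 1 h the groups overlapped with DMSO (10.17, 10.25 and 10.05), with 10.19, 10.23 and 10.20 on BRD8518 arrays and 10.12, 10.15 and 10.09 on OSM arrays. BNIP3L, its relative in mitophagy, changed by −0.73 ± 0.096 at 24 h of BRD8518 (limma adjusted p = 2.87e-06). BNIP3 overlaps PPP2R2D in the RefSeq table, and the part of that transcript was not tested.

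ANKRD37 encodes an ankyrin repeat protein known as a HIF target. On BRD8518 arrays it stood at 5.49 and 5.46 at 6 h and at 5.50, 5.40 and 5.56 at 24 h, below all DMSO arrays of those times (5.79, 6.01, 5.93 and 5.85 at 6 h, and 5.85, 5.95 and 6.24 at 24 h). After 1 h it held 5.42, 5.47 and 5.60 with BRD8518 and 5.77, 5.78 and 5.62 with OSM, beside 5.59, 5.62 and 5.56 in DMSO, and neither passed. The falls were −0.42 ± 0.094 at 6 h (limma adjusted p = 0.00328) and −0.52 ± 0.089 at 24 h (limma adjusted p = 7.31e-05). The 3 BRD8518 groups, 1 h included, were nearly level (5.50, 5.49 and 5.48 in the order of 1 h, 24 h and 6 h), and the DMSO means were 5.59 at 1 h, 5.89 at 6 h and 6.01 at 24 h. The DMSO differences of 0.30 (6 h minus 1 h) and 0.42 (24 h minus 1 h) did not pass (limma adjusted p = 0.695 and 0.804), although no arrays overlapped. OSM arrays held 6.08, 6.07 and 6.16 at 24 h, a change of 0.092 (95% confidence interval −0.093 to 0.28). The 6 h call was lost without BRD8518 6 h replicate 2 (−0.40) and when only the 6 arrays were fitted. ANKRD37 overlaps LRP2BP and UFSP2, which changed by −0.19 and 0.071 at 24 h of BRD8518 and did not pass.

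NDRG1, a stress-responsive cytoplasmic protein, went against the other intracellular genes of the set. At 24 h it reached 7.65, 7.75 and 7.66 with BRD8518 and 7.21, 7.12 and 7.31 with OSM, against 6.71, 6.61 and 6.71 in DMSO, and the 3 groups did not overlap. The rises were 1.01 ± 0.10 with BRD8518 (2.01-fold, limma adjusted p = 4.94e-08) and 0.54 ± 0.10 with OSM (1.45-fold, limma adjusted p = 0.000731). At 6 h the BRD8518 arrays (6.69 and 6.72) lay within the DMSO range (6.41 to 6.94), and the change of 0.037 (95% confidence interval −0.18 to 0.26) did not pass. The 1 h means lay within 0.12 of each other, at 6.58 ± 0.083 with BRD8518, 6.53 ± 0.071 with OSM and 6.46 ± 0.061 in DMSO (SD, n = 3 each).

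**Figure D2:**
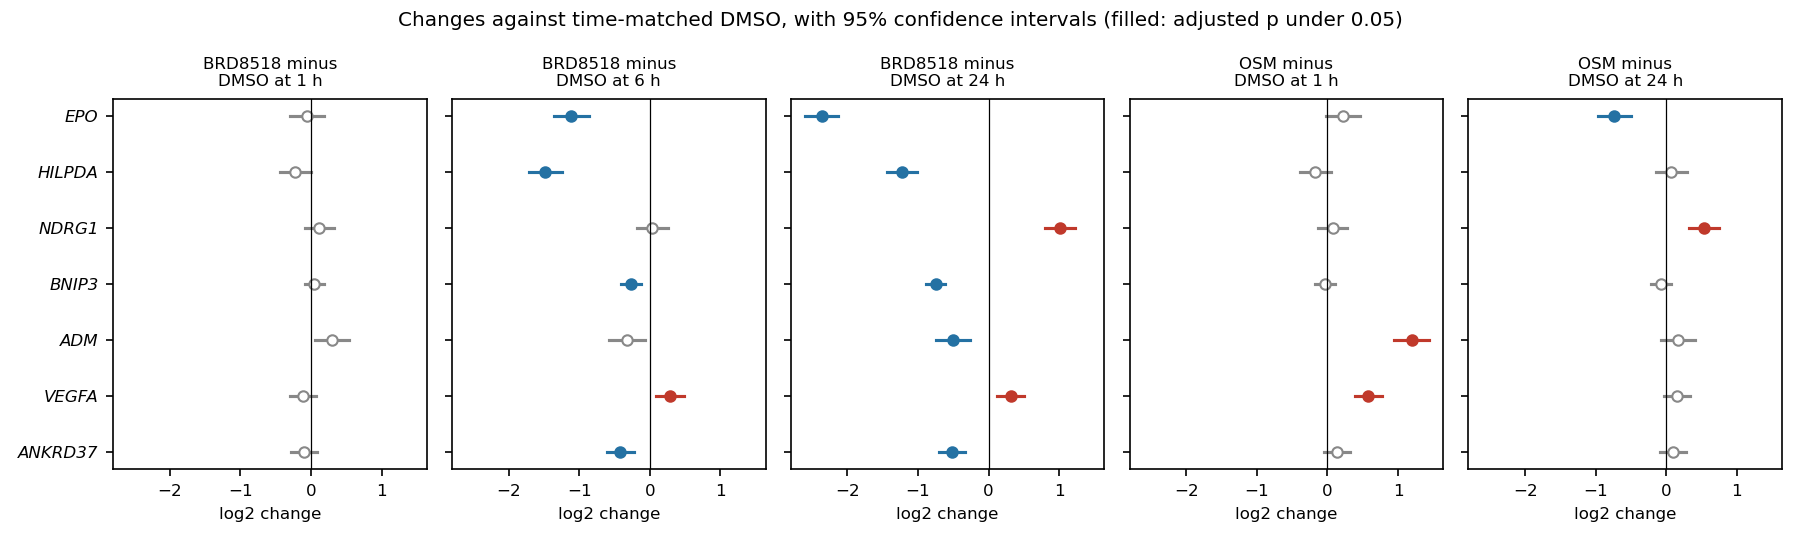
Log2 change of each of the 7 genes against time-matched DMSO, with 95% confidence intervals, for BRD8518 at 1 h, 6 h and 24 h and OSM at 1 h and 24 h. Filled points passed; EPO at 24 h of BRD8518 lies furthest left at −2.36, and ADM at 1 h of OSM furthest right at 1.19.

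Of the 5 genes that fell at 24 h of BRD8518, 4 had an entry in the RefSeq promoter table (EPO, ADM, BNIP3 and ANKRD37), and their 250 bases before the transcription start are shown to compare them for the core of the hypoxia response element. The build is GRCh38.p14. Bases run 5′ to 3′ on the strand of the gene, and capitals mark matches to ACGTG or GCGTG on either strand.
EPO upstream, chr7:100720218-100720467, plus strand: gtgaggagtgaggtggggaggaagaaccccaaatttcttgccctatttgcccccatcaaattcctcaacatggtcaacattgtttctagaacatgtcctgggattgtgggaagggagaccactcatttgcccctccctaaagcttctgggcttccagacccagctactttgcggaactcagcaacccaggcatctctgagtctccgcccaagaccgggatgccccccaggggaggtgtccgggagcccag
ADM upstream, chr11:10304823-10305072, plus strand: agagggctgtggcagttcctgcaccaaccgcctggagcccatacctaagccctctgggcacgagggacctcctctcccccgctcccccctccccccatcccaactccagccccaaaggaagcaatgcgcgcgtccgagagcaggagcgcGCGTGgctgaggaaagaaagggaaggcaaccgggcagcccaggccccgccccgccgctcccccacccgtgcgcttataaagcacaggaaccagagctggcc
BNIP3 upstream, chr10:131981924-131982173, minus strand: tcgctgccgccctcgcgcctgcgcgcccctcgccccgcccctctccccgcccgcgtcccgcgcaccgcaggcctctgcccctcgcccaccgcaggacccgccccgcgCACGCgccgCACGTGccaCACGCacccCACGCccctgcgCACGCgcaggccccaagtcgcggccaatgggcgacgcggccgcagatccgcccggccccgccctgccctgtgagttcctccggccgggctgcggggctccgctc
ANKRD37 upstream, chr4:185396591-185396840, plus strand: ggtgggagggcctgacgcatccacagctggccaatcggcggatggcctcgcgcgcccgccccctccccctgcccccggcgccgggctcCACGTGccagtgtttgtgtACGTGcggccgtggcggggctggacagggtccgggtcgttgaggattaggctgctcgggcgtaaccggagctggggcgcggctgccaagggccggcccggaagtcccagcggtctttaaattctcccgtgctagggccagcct
EPO had 0 matches in this window, ADM 1 (GCGTG), BNIP3 6 (2 ACGTG and 4 GCGTG) and ANKRD37 3 (all ACGTG). In BNIP3 and ANKRD37, 2 of the matches overlap as the palindrome CACGTG, read on both strands. Of all 35116 windows of this length, 18.5% held ACGTG, 32.2% GCGTG and 43.2% either. The best known oxygen-responsive element of EPO lies downstream of the gene, outside this window.

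Set directly against OSM, BRD8518 left lower levels of 5 of the 7 genes at 24 h, EPO, HILPDA, BNIP3, ADM and ANKRD37, and a higher level of NDRG1 (23.2% of all genes passed, 12.3% lower and 10.9% higher). The differences were −1.63 ± 0.11 for EPO (limma adjusted p = 3.54e-10), −1.30 ± 0.11 for HILPDA, −0.67 ± 0.066 for BNIP3, −0.67 ± 0.12 for ADM, −0.62 ± 0.089 for ANKRD37 and 0.47 ± 0.10 for NDRG1 (limma adjusted p = 0.0011). VEGFA differed by 0.16 (95% confidence interval −0.022 to 0.35) and did not pass. At 1 h the genes that differed were ADM (−0.90 ± 0.12, limma adjusted p = 3.25e-05) and VEGFA (−0.70 ± 0.090, limma adjusted p = 2.17e-05), both lower with BRD8518 (2.34% of all genes passed, 0.847% higher and 1.5% lower). The doses are of different agents and were not matched for effect.

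The effect of BRD8518 also differed between times. From 1 h to 6 h it moved down for EPO (−1.06 ± 0.17), HILPDA (−1.26 ± 0.15) and ADM (−0.62 ± 0.17, limma adjusted p = 0.0334), with 6.01% of all genes passing (2.1% upward, 3.91% downward). The ADM difference lost its call in several other fits, among them those with arrays centred (−0.53), with quantile normalization (−0.52) or without DMSO 1 h replicate 3 (−0.48). From 6 h to 24 h it moved down further for EPO (−1.25 ± 0.17, limma adjusted p = 2.19e-05) and BNIP3 (−0.48 ± 0.097, limma adjusted p = 0.00162) and up for NDRG1 (0.97 ± 0.15, limma adjusted p = 0.000104), with 11.1% of all genes passing (5.96% upward, 5.12% downward). For HILPDA the 6 h and 24 h effects differed by 0.25 (95% confidence interval −0.066 to 0.57), which did not pass. The OSM effect was lower at 24 h than at 1 h for EPO (−0.96 ± 0.16) and ADM (−1.02 ± 0.17, limma adjusted p = 0.000479), with 3.37% of all genes passing (1.27% upward, 2.1% downward), and the VEGFA difference of −0.43 ± 0.13 did not pass (limma adjusted p = 0.0656). Each of these differences shares its DMSO arrays with the comparisons above. The titles give 1 uM for the 6 h BRD8518 arrays, whereas the protocols describe a dilution series at 6 h. Time and any difference in dose can therefore not be told apart in the BRD8518 differences that involve 6 h.

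**Figure D3:**
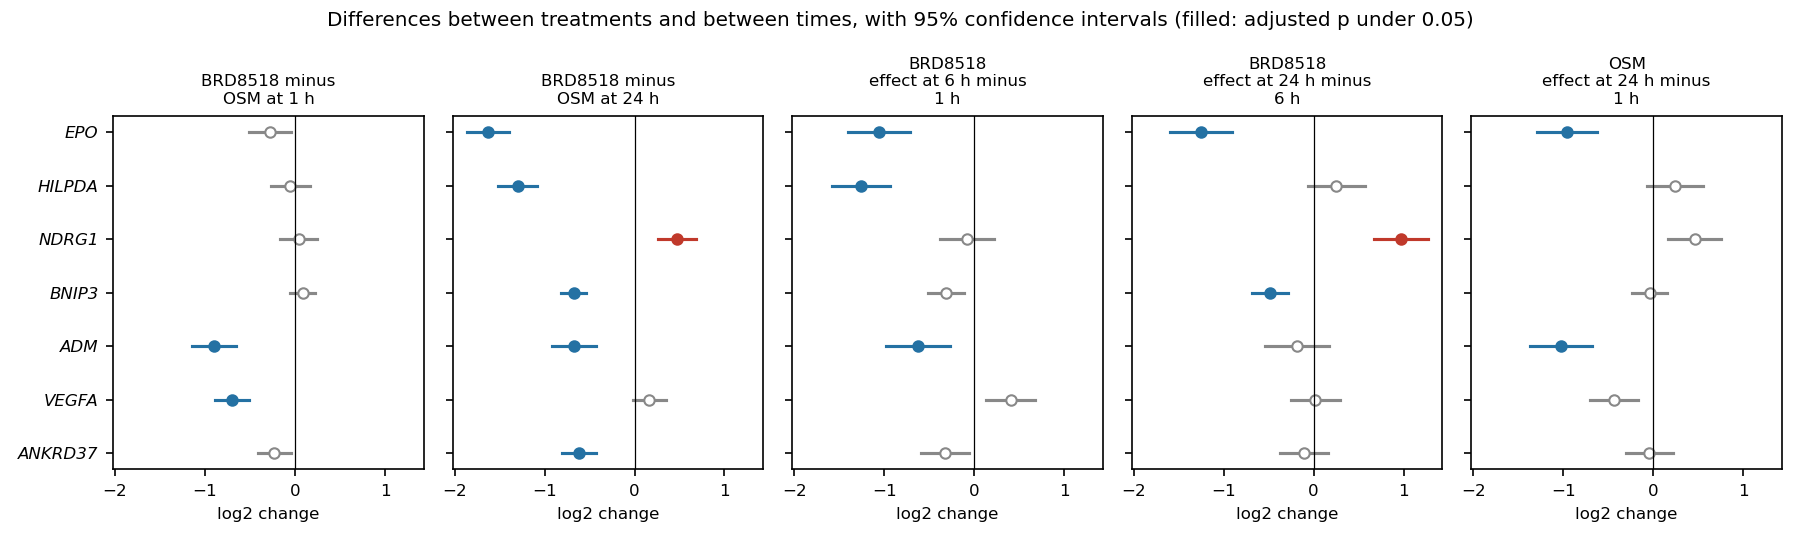
Log2 differences of the 7 genes between BRD8518 and OSM at 1 h and 24 h, and between the effects of one agent at 2 times, with 95% confidence intervals; filled points passed. EPO is lower with BRD8518 than with OSM at 24 h by 1.63, and its BRD8518 effect moves down at both steps in time.

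In vehicle, 0 of the 7 genes passed between 1 h and 6 h or between 1 h and 24 h (limma; 4 of 7 had an unadjusted p under 0.05 in each). Of all genes 0.00672% and 0% passed. The 1 gene was DDIT4, a stress-induced inhibitor of mTORC1 and a HIF target, which stood 0.81 higher at 6 h than at 1 h of DMSO (limma adjusted p = 0.000961). No gene passed in this comparison with the position letter as a fixed term or when only these arrays were fitted, so the DDIT4 call was lost in both. In these 2 comparisons 947 and 424 genes had an unadjusted p under 0.05, where 744 would by chance. The 6 h minus 1 h differences were all positive, from 0.095 for EPO to 0.30 for ANKRD37, and the 24 h minus 1 h differences ran from −0.0073 for VEGFA to 0.42 for ANKRD37. All 6 h arrays carry the position letter D, which no other array has, so time and letter cannot be told apart between 6 h and the other DMSO arrays.

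The machinery that reads oxygen was followed in a list of 18 genes, of which 8 were measured. HIF1A, VHL, CA9 and HNF4A were not analysed here. At 24 h of BRD8518, 4 rose, 0 fell and 4 did not pass (median 0.19, beside −0.0049 over all genes): EPAS1 (0.62 ± 0.077, limma adjusted p = 1.2e-06), its partner ARNT (0.49 ± 0.11), the ubiquitin ligase gene SIAH1 (0.43 ± 0.11) and the prolyl hydroxylase gene EGLN1 (0.38 ± 0.11). The prolyl hydroxylase gene EGLN3 changed by −0.29 ± 0.13 and did not pass (limma adjusted p = 0.094). At 6 h SIAH1 (0.52 ± 0.11), SIAH2 (0.50 ± 0.10), ARNT (0.42 ± 0.12) and EPAS1 (0.39 ± 0.081) rose. The ARNT call was lost without either BRD8518 array (0.45 and 0.38), and none of the 4 passed when only the 6 arrays were fitted. With OSM, EPAS1 rose at 1 h (0.41 ± 0.077, the 1 of 8) and at 24 h (0.53 ± 0.077), when SIAH2 fell (−0.57 ± 0.099). With BRD8518 at 1 h, 0 of 8 passed. Against DMSO, 5.62% of all genes rose and 8.86% fell at 6 h of BRD8518, and 12.1% and 15.6% at 24 h. With OSM, 2.03% of all genes rose and 0.813% fell at 1 h, and 4.6% and 5.65% at 24 h.

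Glycolysis genes known as HIF targets fell with BRD8518 late. Of 22 listed, 9 were measured, and at 24 h 7 fell, 1 rose and HK2 (−0.27, limma adjusted p = 0.0538) did not pass, with a median of −0.35. The falls were led by phosphoglucomutase PGM1 (−0.94 ± 0.083), phosphoglycerate mutase PGAM1 (−0.91 ± 0.17), lactate dehydrogenase LDHA (−0.56 ± 0.11) and phosphoglycerate kinase PGK1 (−0.36 ± 0.091), while hexokinase HK1 rose by 0.67 ± 0.12. At 6 h TPI1 (−0.48 ± 0.12) and PGM1 (−0.26 ± 0.088) were the 2 falls, with 0 rises. The TPI1 call was lost without BRD8518 6 h replicate 1 (−0.37) and when only the 6 arrays were fitted, and the PGM1 call in 8 other fits. With OSM at 24 h HK1 rose by 1.27 ± 0.12, PGM1 fell (−0.43 ± 0.083) and 7 did not pass (median 0.10). At 1 h 0 of 9 passed with either agent, though 1 or 2 did with BRD8518 in 3 other limma fits. All 9 were lower with BRD8518 than with OSM at 24 h (median −0.51), where 12.3% of all genes were. Against DMSO, 5.62% of all genes rose and 8.86% fell at 6 h of BRD8518, and 12.1% and 15.6% at 24 h. With OSM at 24 h, 4.6% of all genes rose and 5.65% fell.

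Other HIF targets split. For scale, 5.62% of all genes rose and 8.86% fell at 6 h of BRD8518, and 12.1% and 15.6% at 24 h. With OSM, 2.03% of all genes rose and 0.813% fell at 1 h, and 4.6% and 5.65% at 24 h. Of 39 listed, 25 were measured, and at 24 h of BRD8518 8 rose, 7 fell and 10 did not pass (median −0.039). IGFBP1, which binds insulin-like growth factors, rose by 1.96 ± 0.14, the lipoprotein receptor gene VLDLR by 1.79 ± 0.097, the endothelin gene EDN1 by 1.45 ± 0.13 and IGFBP3 by 0.61 ± 0.15. Lysyl oxidase LOX (−1.78 ± 0.10), TMEM45A (−1.56 ± 0.14), the copper protein gene CP (−1.13 ± 0.11) and heme oxygenase HMOX1 (−1.10 ± 0.076) fell most. At 6 h 4 rose (EDN1, IGFBP1, RORA and CXCR4, 0.35 to 2.97), 5 fell (HMOX1, TMEM45A, BNIP3L and ANGPTL4 among them, −0.66 to −0.35) and 16 did not pass. Of these, RORA, CXCR4, TMEM45A, BNIP3L and ANGPTL4 lost their calls when either BRD8518 array was left out, and EDN1 and HMOX1 alone passed when only the 6 arrays were fitted. EDN1 was the 1 of 25 to rise at 1 h (1.05 ± 0.13), where 0.222% of all genes rose. With the position letter as a fixed term its change was 0.80. That estimate rests on the 1 BRD8518 array at letter B, which all DMSO 1 h arrays carry. With OSM, IGFBP1, HMOX1 and EDN1 rose at 1 h (0.60 to 0.65) and DDIT4 fell (−0.51 ± 0.11). At 24 h OSM raised 5, with IGFBP1 (2.21 ± 0.14), CP (1.22 ± 0.11), EDN1 (0.92 ± 0.13) and VLDLR (0.65 ± 0.097) first, and lowered TF, the transferrin gene (−0.35 ± 0.059). At 1 h of OSM neither EDN1 (0.51) nor IGFBP1 (0.57) passed without DMSO 1 h replicate 3, and DDIT4 did not pass without OSM 1 h replicate 1 (−0.44) or DMSO 1 h replicate 1 (−0.47). CP thus moved in opposite directions under the 2 agents, with a difference of −2.34 ± 0.11 (BRD8518 minus OSM, limma adjusted p = 5.32e-13).

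**Figure D4:**
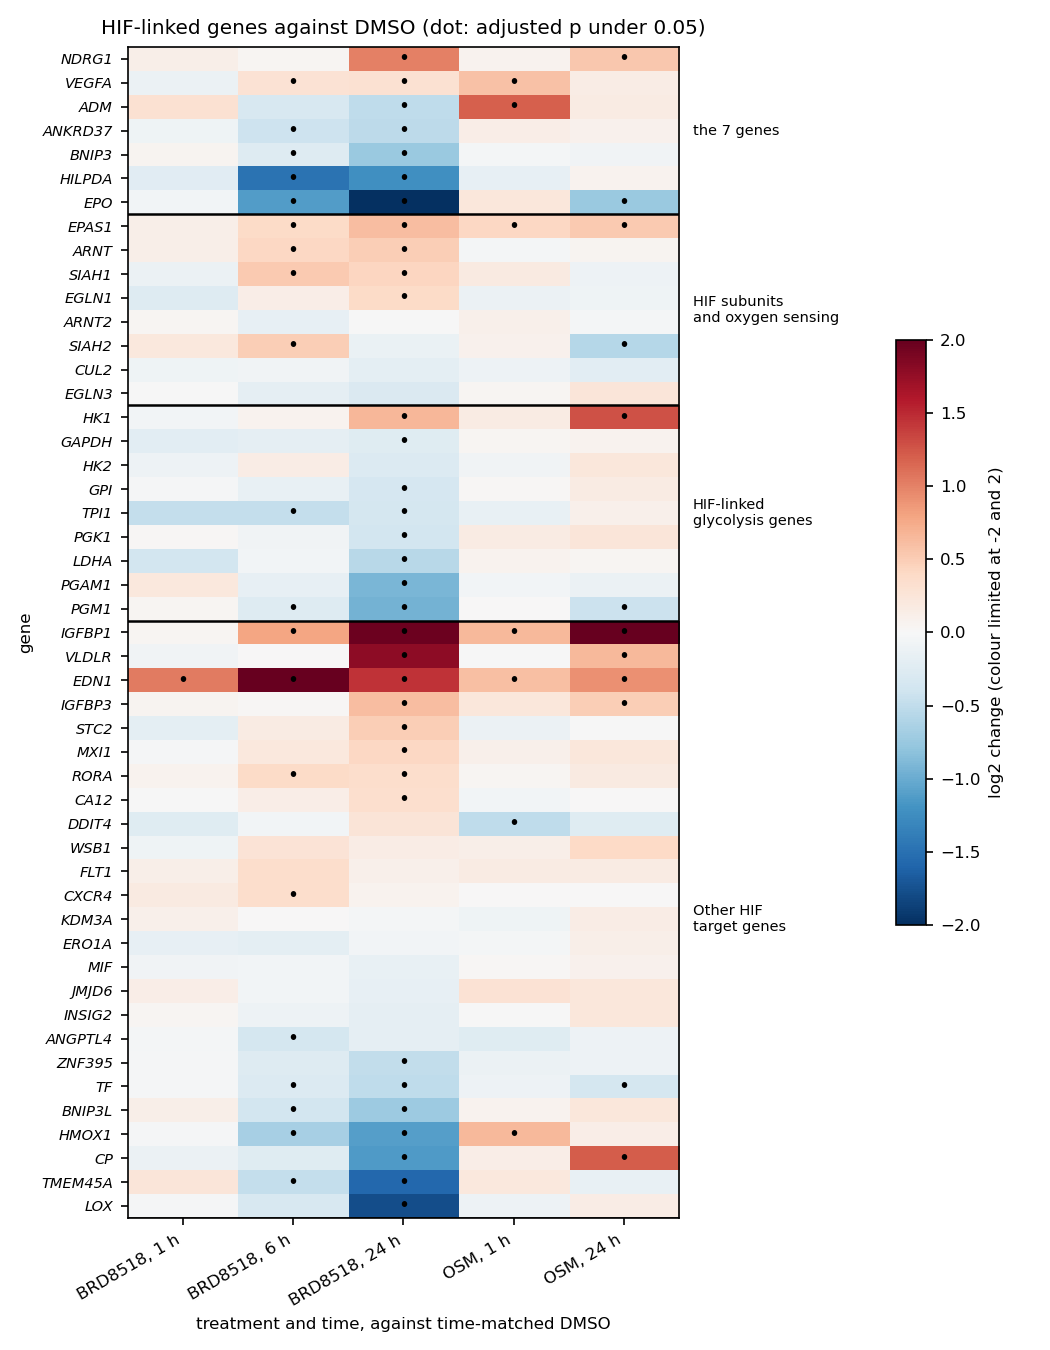
Log2 change against time-matched DMSO (colour, limited at −2 and 2) of the 7 genes and of the measured oxygen sensing genes (8), glycolysis genes (9) and other HIF targets (25), for BRD8518 and OSM by time; a dot marks an adjusted p under 0.05. At 24 h of BRD8518, 7 of 9 glycolysis genes are lower, and the other targets are split into 8 higher and 7 lower. Of all genes, 12.1% are higher and 15.6% lower there.

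Receptors and relatives of the 7 gene products were measured for 21 of 24 listed genes. At 24 h of BRD8518, 2 rose and 5 fell, where 12.1% of all genes rose and 15.6% fell, so the count is near that of the whole array. NDRG4 (0.55 ± 0.12) and the lipase activator ABHD5 (0.50 ± 0.069) rose, and BNIP3L, the growth factor gene VEGFB (−0.70 ± 0.13), NDRG2 (−0.63 ± 0.079) and placental growth factor PGF (−0.35 ± 0.084) fell. The erythropoietin receptor gene EPOR also fell (−0.29 ± 0.080, limma adjusted p = 0.00813), but not without BRD8518 24 h replicate 2 (−0.23). NDRG1 thus rose, as did its relative NDRG4, where NDRG2 fell. At 6 h BNIP2 rose (0.44 ± 0.13) and BNIP3L fell (−0.36 ± 0.10), but BNIP2 did not pass without BRD8518 6 h replicate 1 (0.31), and BNIP3L did not pass without BRD8518 replicate 1 or 2 or DMSO 6 h replicate 1 (−0.30). With OSM the VEGF co-receptor gene NRP1 rose by 0.65 ± 0.083 at 1 h and 1.87 ± 0.083 at 24 h, and ABHD5 rose at 1 h (0.63 ± 0.069). At 24 h of OSM the lipid droplet gene PLIN2 (0.25 ± 0.070) rose and NDRG2 (−0.33 ± 0.079) fell. The PLIN2 call was lost in 7 other fits, and that of NDRG2 without DMSO 24 h replicate 3 (−0.28) or with the letter as a fixed term. At 1 h of BRD8518 0 of 21 passed. Of all genes, 5.62% rose and 8.86% fell at 6 h of BRD8518. With OSM, 2.03% of all genes rose and 0.813% fell at 1 h, and 4.6% and 5.65% at 24 h.

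Factors known to act on the EPO gene were measured for 9 of 13 listed. At 24 h of BRD8518 EPAS1, ARNT and the coactivator genes CREBBP (0.34 ± 0.070) and EP300 (0.31 ± 0.069) rose, and GATA6 (−0.54 ± 0.096) and GATA4 (−0.39 ± 0.093) fell. Of all genes, 12.1% rose and 15.6% fell there, and 5.62% and 8.86% at 6 h. At 6 h EPAS1, ARNT and CREBBP (0.28 ± 0.075) rose and GATA4 (−0.41 ± 0.098) fell, but CREBBP did not pass without BRD8518 6 h replicate 1 (0.23) nor GATA4 without replicate 2 (−0.39). OSM raised EPAS1 at both times and lowered GATA4 at 24 h (−0.31 ± 0.093, lost in 7 other fits), and 0 of 9 passed with BRD8518 at 1 h. The growth-signal list of 12 immediate-early and feedback genes rose in 9, 12 and 10 cases with BRD8518 at 1 h, 6 h and 24 h. Of all genes, 0.222%, 5.62% and 12.1% rose there. EGR1 rose by 3.04 ± 0.13, 3.34 ± 0.14 and 2.48 ± 0.13, and its lowest changes among the other fits were 2.03, 2.23 and 1.49. With OSM the list rose in 11 cases at 1 h and 7 at 24 h, where SPRY2 fell (−0.40 ± 0.093). Of all genes, 2.03% rose at 1 h of OSM, and 4.6% rose and 5.65% fell at 24 h. With the position letter as a fixed term, the 1 h comparison rests on 1 BRD8518 array, and no count is given for it.

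Markers of other cell types were too few to set against the 27.7% of all genes that passed at 24 h of BRD8518. At 24 h of BRD8518 the endothelial receptor gene TIE1 rose by 0.81 ± 0.092 as 1 of 4 measured and the lysosomal gene CD68 by 1.19 ± 0.078 as 1 of 4 myeloid markers. CD68 also rose at 6 h of BRD8518 (0.51 ± 0.083) and at 24 h of OSM (0.34 ± 0.078), and PECAM1 fell at 24 h of OSM (−0.43 ± 0.10). Of 2 stromal markers 0 passed in any comparison with DMSO. The summed log2 level of the 4 endothelial markers ran from 20.3 to 20.9 on 24 h BRD8518 arrays, against 19.8 to 20.1 in DMSO, and that of the 4 myeloid markers from 24.1 to 25 against 23.4 to 23.8.

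The 7 genes did not share 1 pattern over the 8 group means, which come from arrays normalised together. EPO and BNIP3 ran together (Pearson r = 0.878), as did HILPDA and BNIP3 (0.823) and HILPDA and ANKRD37 (0.76), while EPO and NDRG1 ran opposite (−0.881) and NDRG1 and ANKRD37 showed little relation (0.0134). These values describe 8 points and carry no test. Among 1017 or 1018 genes whose group means spanned at least 1 on the log2 scale, those most like EPO were TMEM170B (r = 0.996), KIF20A (0.994) and CCNE1 (0.993). RWDD2A, UNC119B and LOC100128288 were most like HILPDA (0.977 to 0.970), and KIF5A, ABR and ARFGEF3 most like NDRG1 (0.987 to 0.983). LOX, a member of the HIF target list, led the genes most like BNIP3 (0.972), followed by RIMKLA (0.968) and TMEM67 (0.964). For ADM they were HPX (0.960), CIRBP-AS1 (0.953) and ZNF878 (0.952), for VEGFA MIDN (0.932), KLF10 (0.927) and DLX2 (0.921), and for ANKRD37 SPAG4 (0.888), SMIM3 (0.772) and CHST15 (0.772).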

How the data were processed

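The authors' files hold log2 expression values and were used as deposited. The submitters' processing notes name RMA and oligo; their versions and the probe sets' genome build are not given in these sources. Biotin labelling used Affymetrix whole-transcript kits, per the labels' protocols, which describe a dilution series of BRD8518 at 6 h, whereas sample titles give 1 uM for both 6 h BRD8518 arrays; the titles were followed. The values ran from 0.913 to 13.7 over 53617 probe sets, of which 16098 had 1 gene symbol, 0 had several and 37519 were unnamed here. Where a gene had several probe sets (779 genes), only its brightest one on average entered the fit. RMA values carry no detection calls.

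One limma model (limma 3.58.1, R 4.3.3) held a mean for each group of the 24 arrays and gave 12 contrasts, two-sided, adjusted by Benjamini-Hochberg over 14884 genes; 95% confidence intervals are from this fit. It was tested on simulated data. Nothing in the labels says that arrays came from separate cultures, so p-values reflect the spread among arrays alone, and that spread may be technical. The members and gene lists were chosen with earlier results of these data known. The 6 pathway lists held 124 genes, of which 80 were measured, and named members are the up to 4 largest changes per list and direction. Genes most alike were the 3 with the highest correlation over group means. Alternatives were a filter on dim genes, centring, quantile normalization, trend and robust moderation, array weights, the mean of probe sets, the compared groups alone, the position letter of the labels (whose meaning they do not state) as a random block or fixed term, and each array left out. Figures used matplotlib 3.10.9 in Python 3.11.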

Additional observations from a re-analysis of the deposited data

Results flagged for a closer look

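ADM on DMSO 6 h replicate 2, at 6.60, lay far from the other 3 arrays of its group, which held 6.30 to 6.34; of 7 genes tested in this way in the 1 group of 4 arrays, chance flags about 1 in 20. The same array was the highest of its group for HILPDA (7.48), NDRG1 (6.94) and ANKRD37 (6.01) and the lowest for EPO (8.14). Without it, the 6 h BRD8518 changes were −1.15 for EPO, −0.38 for ANKRD37 and −0.25 for ADM, which again did not pass.

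The effect of BRD8518 differed between 1 h and 6 h, by the limma test of the difference itself, for EPO (−1.055), HILPDA (−1.257) and ADM (−0.6199). Between 6 h and 24 h it differed for EPO (−1.251), NDRG1 (0.9717) and BNIP3 (−0.4848). The effect of OSM differed between 1 h and 24 h for EPO (−0.9569) and ADM (−1.025).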

How the results depend on the processing

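Over 84 changes of the 7 genes and 1381 alternative fits of them, 1339 kept their side of the threshold, 22 lost a call, 20 gained one and 0 reversed; every change of call fell in 8 of the 84. At 6 h of BRD8518 against DMSO 5 genes passed, 2 when only those arrays were fitted (EPO and HILPDA) and 2 to 5 with 1 array left out. For the BRD8518 effect at 6 h minus 1 h the count of 3 became 5 with dim genes left out, with array weights and without DMSO 6 h replicate 2 (2 to 5 with 1 array left out). For the OSM effect at 24 h minus 1 h the count of 2 became 4 with dim genes left out and with array weights (2 to 3 with 1 array left out). BNIP3 (−0.33) and VEGFA (0.41) passed in the 6 h minus 1 h difference without DMSO 6 h replicate 2. Leaving out dim genes removed ANKRD37.

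Over all genes, array weights gave 81 and 3466 calls for BRD8518 at 1 h and 6 h, against 38 and 2155, and 1125 and 3068 for OSM at 1 h and 24 h, against 423 and 1526 (274 at 1 h without DMSO replicate 3). At 6 h of BRD8518 the count was 452 when only those arrays were fitted, 1208 without BRD8518 replicate 2 and 3345 without DMSO replicate 2. At 1 h it was 25 without BRD8518 replicate 2. The DMSO and OSM arrays at 1 h all carry letter B, as did 1 of the BRD8518 arrays. With the letter as a fixed term, contrasts of BRD8518 at 1 h rest on that array, so no count is given. BRD8518 against OSM gave 349 calls at 1 h (934 with array weights, 224 without OSM replicate 3) and 3458 at 24 h (5286 with array weights). The BRD8518 effect at 6 h minus 1 h gave 895 calls (1989 with array weights, 327 with the compared groups alone, 1898 without DMSO 6 h replicate 2). At 24 h minus 6 h it gave 1649 (2866 with array weights, 875 with the compared groups alone, 2741 without DMSO 6 h replicate 2). The OSM effect at 24 h minus 1 h gave 502 (1324 with array weights, 828 with the compared groups alone). The 6 h split of 836 higher and 1319 lower became 1309 and 943 with arrays centred. The replicate numbers used here follow the order of the arrays in the series within each group. No paired analysis was possible because the labels give no replicate numbers.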
